A study of Homo sapiens with 24 samples.

Results

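The RNA and ribosome footprint values of HNRNPC and PABPC4 are described here in MDA-MB-231, an established human line of breast cancer cells. The transcripts were chosen by a list of 11 Ensembl IDs for these 2 genes, and 2 of the 11 had a row, 1 for each gene, among the 11396 transcripts of the deposited tables. HNRNPC was listed as ENST00000420743 and PABPC4 as ENST00000372858, in both tables. The other 9 IDs have no value here: ENST00000320084, ENST00000336053, ENST00000430246, ENST00000553300, ENST00000554383, ENST00000554455 and ENST00000555883 of HNRNPC, and ENST00000372857 and ENST00000372862 of PABPC4. Isoforms of a gene could therefore not be compared. HNRNPC lies on chromosome 14 (positions 21209147 to 21269442) and PABPC4 on chromosome 1 (39560816 to 39576790) in RefSeq's annotation of GRCh38.p14.

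HNRNPC encodes the C proteins of the heterogeneous nuclear ribonucleoprotein family, which bind uridine tracts in newly made transcripts in the nucleus. There they package pre-mRNA and influence splicing and the choice of polyadenylation site. PABPC4 encodes a cytoplasmic poly(A)-binding protein, a relative of PABPC1, of the kind that coats the poly(A) tail of mRNA and takes part in its stability and translation.

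Cells labelled as an HNRNPC knockdown (MDA-sgHNRNPC) were compared with cells carrying a control guide (MDA-sgCTRL), both labelled poorly metastatic. MDA-LM2 cells, a subline of MDA-MB-231 obtained by selection for lung colonization in mice, carry the same cell line label and are labelled highly metastatic to lungs. They were compared with the parental line (MDA-Par), labelled poorly metastatic. Each of the 4 groups had 3 footprint and 3 RNA libraries, 24 in all, and the lysis buffer of every group held cycloheximide, which keeps ribosomes on mRNA. The labels give no guide sequence or Cas protein, and do not say whether the guide-carrying cells were a clone or a pool.

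Footprint libraries count mRNA fragments protected by ribosomes, and footprints per RNA is used here as translation efficiency. Each value is normalized read signal listed by transcript, so levels can be set side by side within a table. The part of the transcript over which reads were counted is not given in the sources used here. Levels of different genes are not compared because the values are not divided by length. RNA libraries corresponded to 23344230 to 28334050 reads over the listed transcripts in the knockdown table and to 26810212 to 52584688 in the LM2 table, and footprint depth in reads is unknown. The RNA values of HNRNPC corresponded to 1465 to 21953 reads per library and those of PABPC4 to 5964 to 11565. At the fewest reads, 1465 in a knockdown library, counting error was 2.61% of the HNRNPC value, against a variation of 7.33% between the 3 knockdown libraries.

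HNRNPC is the targeted gene and serves as the check of the labels. Its RNA fell to 13.2% of the control guide level in the knockdown cells. These are bulk lysates, so a partial fall in every cell and a full fall in some of the cells cannot be told apart. The RNA value of HNRNPC was 1393, 1304 and 1509 in the knockdown libraries, against 10556, 10389.6 and 10888 in the control guide libraries. Every knockdown library lay far below every control guide library, where 46% of tested transcripts had all knockdown libraries below. HNRNPC averaged 1402 ± 103 in the knockdown, against 10611 ± 254 with the control guide (SD, n = 3 each). The log2 change was -2.92 ± 0.05 (SE), with an adjusted p of 7.60e-24 in limma over the 8283 transcripts tested in this table. It had the smallest p of all 8283, and 3 transcripts had a lower log2 change. RNA was called lower for 45.4% of the tested transcripts at an adjusted p under 0.05, so a call in this direction is common in the table, and a change of this size is not.

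Footprints on HNRNPC fell less than its RNA. The footprint value of HNRNPC was 103, 103 and 110.2 in the knockdown libraries, against 447, 487 and 439 in the control guide libraries. Footprints thus stood at 23.1% of the control guide level, with a mean of 106 ± 4.10 in the knockdown against 458 ± 25.6 with the control guide (SD, n = 3 each). The groups did not overlap, as in 25.7% of tested transcripts with the knockdown lower. The log2 change was -2.11 ± 0.10 (limma, adjusted p = 1.30e-16), again the smallest p of the 8283. In footprints 20 transcripts had a lower log2 change, and 20.7% of those tested were called lower.

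Footprints per RNA of HNRNPC therefore rose in the knockdown cells. It was 7.39, 7.93 and 7.31 footprint units per 100 RNA units in knockdown replicates 1, 2 and 3, against 4.24, 4.68 and 4.03 in control guide replicates 1, 2 and 3. Every knockdown value lay above every control guide value, as it did for 17.2% of the tested transcripts. The change in efficiency was 0.82 ± 0.10 on the log2 scale (95% interval 0.61 to 1.03), with an adjusted p of 0.000147 in limma, where 3.72% of transcripts were called higher. RNA came from the footprint lysates, and this fit did not pair the 2 assays. With footprints paired to RNA of the same number, the SE was 0.12 and the limma adjusted p was 0.0377. On simulated data the efficiency test made more false calls than its threshold allows, so efficiency p-values may be too small and the shares called too high. The footprint signal per RNA signal counted for HNRNPC was 1.75 times as high in knockdown cells as in control guide cells. The median efficiency change of the table was 0.09 on the log2 scale, and relative to it the HNRNPC change was 0.73. Among all tested transcripts, HNRNPC stood at percentiles 84.6 to 88.6 for footprints per RNA in the knockdown libraries and 57.2 to 65.2 in the control guide libraries.

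**Figure D1:**
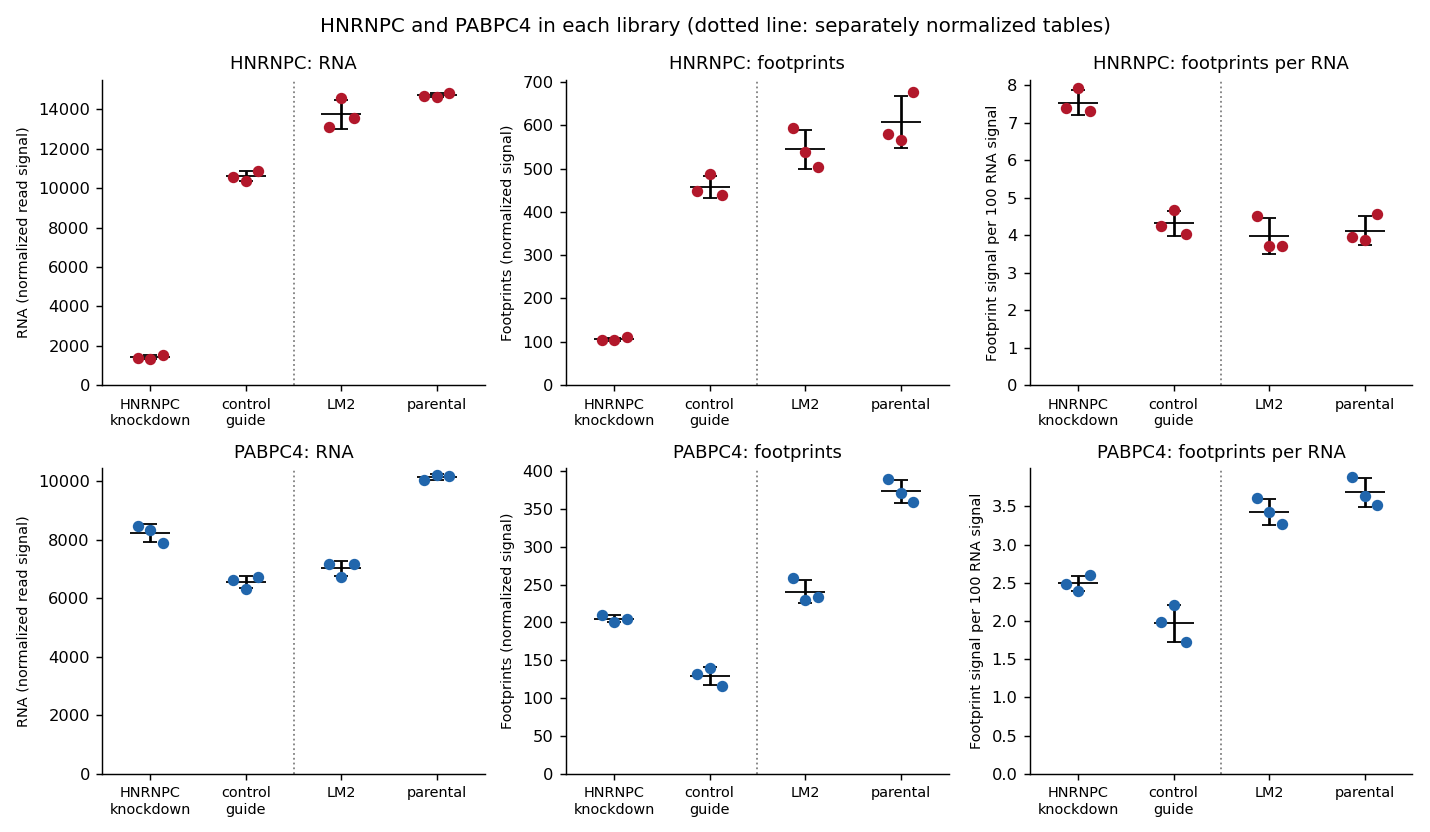
Values of HNRNPC (upper row, red) and PABPC4 (lower row, blue) in every library: RNA, footprints, and footprint signal per 100 RNA signal of the same replicate number, all on axes that start at 0. Points are libraries, horizontal bars are means and whiskers are SD (n = 3), and the dotted line separates 2 tables that were normalized separately. HNRNPC RNA stands at 1304 to 1509 in knockdown cells and at 10389.6 or more in the other groups, and PABPC4 RNA is higher in knockdown than in control guide cells and lower in LM2 than in parental cells.

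HNRNPC can be set beside the other transcripts with a steep fall in RNA, in classes whose bounds were chosen after the values were seen. RNA was at least 4-fold lower in knockdown cells for 16 transcripts, HNRNPC among them. The efficiency estimate was above 0 for 14 of the 16 and called higher for 5, and their median changes were -2.53 for RNA and -1.89 for footprints. HNRNPC is counted in the 14 and in the 5. RNA was at least 2-fold lower for 464 transcripts, of which 395 had an efficiency estimate above 0 and 74 (15.9%) were called higher. Over all tested transcripts the median efficiency change was 0.09, so an estimate above 0 was common, and 3.72% were called higher. These counts of calls are from the fit as reported, and were not recomputed under the alternatives, where the efficiency calls of the whole table ran from 75 to 629, against 452 as reported. They fell to 75 with footprints paired to RNA of the same number, to 178 without knockdown replicate 2, to 200 without knockdown replicate 3, and to 249, 182 and 256 without control guide replicates 1, 2 and 3. In LM2 against parental cells, RNA was at least 2-fold lower for 159 transcripts, of which 125 had an efficiency estimate above 0 and 8 were called higher. In knockdown cells RNA was at least 2-fold higher for 180 transcripts. Of these, 60 had an efficiency estimate above 0, 1 was called higher and 12 were called lower. These calls, too, are from the fits as reported. RNA enters efficiency with the opposite sign, so error in RNA alone can move transcripts with lower RNA towards a higher efficiency. The HNRNPC RNA change was -2.92 with an SE of 0.05, and the part of such error in its efficiency change was not tested. Reads from near-identical relatives of HNRNPC in the genome could be counted with it, and how such reads were assigned is not given in the sources used here. Their part in the footprints that remained was not tested.

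PABPC4 went the other way in the knockdown cells, with more RNA and more footprints. The RNA value of PABPC4 was 8456, 8339.9 and 7899 in the knockdown libraries, against 6611, 6330.2 and 6735 in the control guide libraries. The lowest knockdown library lay above the highest control guide library, as in 29% of tested transcripts. The means were 8231 ± 294 and 6558 ± 207 (SD, n = 3 each), and the log2 change was 0.33 ± 0.04 (limma, adjusted p = 1.45e-07). RNA was called higher for 28% of the tested transcripts, and 1516 of the 8283 had a higher change. The median RNA change of the table was -0.10 on the log2 scale as deposited. Relative to it, the PABPC4 change was 0.43 and the HNRNPC change -2.82. Under quantile normalization the PABPC4 RNA change was 0.51.

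Footprints on PABPC4 were 209.7, 199.97 and 205 in the knockdown libraries, against 131, 139 and 116 in the control guide libraries. The knockdown libraries all lay higher, as in 20.5% of tested transcripts, and the ratio of the means was 1.59 for footprints, against 1.26 for RNA. The log2 footprint change was 0.67 ± 0.10 (limma, adjusted p = 7.63e-06), where 15.5% of the tested transcripts were called higher.

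Footprints per RNA of PABPC4 did not pass the test in the knockdown cells. The ratio was 2.48, 2.40 and 2.60 footprint units per 100 RNA units in knockdown replicates 1, 2 and 3, against 1.99, 2.20 and 1.72 in control guide replicates 1, 2 and 3. All 3 knockdown values lay above the control guide values, as in 17.2% of tested transcripts, and the control guide values spread more widely. The log2 change was 0.34 ± 0.10, with a 95% interval of 0.13 to 0.55 before adjustment and an adjusted p of 0.0554 in limma, where 3.72% of transcripts were called higher. Relative to the median efficiency change of the table, 0.09, the PABPC4 change was 0.25. With the median RNA and footprint changes set to 0, the limma adjusted p was 0.137. Over 17 alternatives the adjusted p was lowest at 0.0372, with a minimum mean of 50 and fewer transcripts tested. It was highest at 0.265, with footprints paired to RNA of the same number. The estimate stayed above 0 at 0.25 to 0.42. Of 1784 transcripts with RNA at least 1.2-fold higher in knockdown cells, 779 had an efficiency estimate above 0 and 11 (0.617%) were called higher. This bound, too, was chosen after the values were seen.

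**Figure D2:**
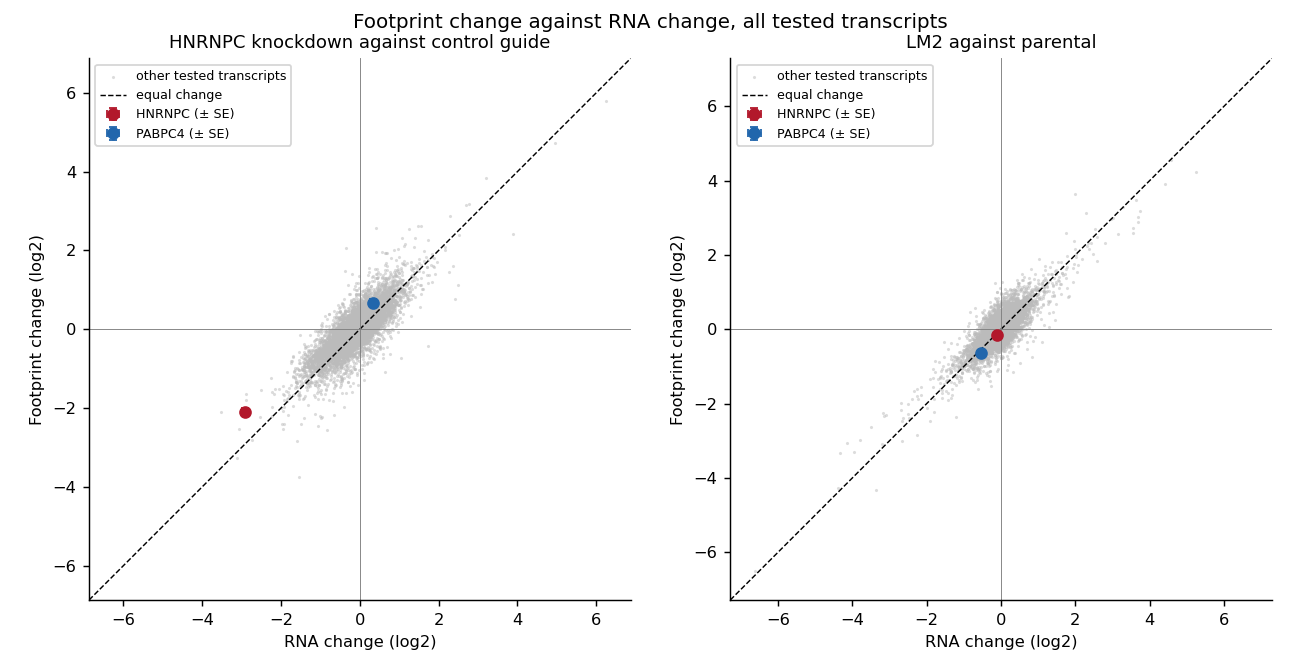
Log2 change in footprints against log2 change in RNA for all tested transcripts (grey points), with HNRNPC (red) and PABPC4 (blue) and their SE, in knockdown against control guide cells (left) and LM2 against parental cells (right). The dashed line marks equal changes. HNRNPC lies above the line at an RNA change of -2.92 and a footprint change of -2.11 in the knockdown, and PABPC4 lies in the upper right on the left panel and in the lower left on the right panel.

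LM2 cells differed little from parental cells in HNRNPC. The RNA value of HNRNPC was 13102, 14558 and 13581 in the LM2 libraries, against 14708, 14653 and 14833 in the parental libraries. All 3 LM2 libraries lay below the parental libraries, as in 33.3% of tested transcripts, the nearest by less than the spread among LM2 libraries. The mean was 13747 ± 742 in LM2 against 14731 ± 92.2 in parental cells (SD, n = 3 each). RNA fell by 0.10 ± 0.04 on the log2 scale (limma, adjusted p = 0.0241), in a table of 9342 tested transcripts where 30.8% were called lower. The call was lost in 9 of 17 alternatives, whose adjusted p ran from 0.00209 to 0.484 in all. It was lost without LM2 replicate 1 (-0.067, adjusted p = 0.149), without LM2 replicate 3 (-0.093, adjusted p = 0.0807), without parental replicate 2 (-0.10, adjusted p = 0.0511) and without parental replicate 3 (-0.096, adjusted p = 0.0624).

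Footprints on HNRNPC were 593, 539 and 503 in the LM2 libraries, against 581, 567 and 676 in the parental libraries. The groups overlapped, and the log2 change of -0.16 ± 0.08 did not pass the test (95% interval -0.33 to 0.02, limma adjusted p = 0.185). Without LM2 replicate 1 it was -0.22 and passed (adjusted p = 0.0309), and under quantile normalization the estimate was 0.060. The adjusted p ran from 0.0309 to 0.609 over the 17 alternatives.

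Footprints per RNA of HNRNPC was 4.53, 3.70 and 3.71 units per 100 RNA units in LM2 replicates 1, 2 and 3, against 3.95, 3.87 and 4.56 in parental replicates 1, 2 and 3. The groups overlapped, with an efficiency change of -0.06 ± 0.10 (95% interval -0.26 to 0.15, limma adjusted p = 0.860). The sign of this estimate turned without parental replicate 3 (0.019) and under quantile normalization (0.087).

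PABPC4 was lower in LM2 cells, in RNA and in footprints. The RNA value of PABPC4 was 7177, 6724 and 7155 in the LM2 libraries, against 10026, 10209.7 and 10186 in the parental libraries. The groups were far apart next to their spread, with a mean of 7019 ± 255 in LM2 against 10141 ± 100.2 in parental cells (SD, n = 3 each). LM2 cells thus held 69.2% of the parental PABPC4 RNA, a log2 change of -0.53 ± 0.04 (limma, adjusted p = 1.17e-10). Every LM2 library lay below every parental library, as in 33.3% of the 9342 tested transcripts. RNA was called lower for 30.8% of them, and 742 had a lower log2 change in RNA.

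Footprints on PABPC4 were 259, 230.2 and 234 in the LM2 libraries, against 389.8, 371 and 359 in the parental libraries. Again all LM2 libraries lay lower, as in 20.4% of tested transcripts, and LM2 cells held 64.5% of the parental footprints. The log2 change was -0.63 ± 0.08 (limma, adjusted p = 6.50e-07), where 14.5% of the tested transcripts were called lower and 447 had a lower log2 change.

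Footprints per RNA of PABPC4 was 3.60, 3.42 and 3.26 units per 100 RNA units in LM2 replicates 1, 2 and 3, against 3.89, 3.64 and 3.52 in parental replicates 1, 2 and 3. The groups overlapped slightly, and the efficiency change of -0.10 ± 0.08 did not pass the test (95% interval -0.28 to 0.08, limma adjusted p = 0.653), where 1.16% of transcripts were called lower.

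The RNA and footprints of PABPC4 were called higher in the knockdown and lower in LM2 cells. The same pattern of 4 calls was found for 171 of the 8171 transcripts tested in both tables (2.09%). This pattern was taken from the calls of PABPC4 itself, which is counted in the 171. RNA calls alone, higher in the knockdown and lower in LM2 cells, were found for 755 of the 8171 (9.24%). The 2 tables share no samples and were normalized separately, and the difference between the PABPC4 changes of the 2 experiments was not tested.

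The ratio of HNRNPC to PABPC4 within a library does not change when the library is scaled by 1 factor, but can under quantile normalization. Its log2 change was -3.25 for RNA and -2.79 for footprints in knockdown against control guide cells, averaged over the 9 pairs of libraries, with ranges of -3.39 to -3.06 and -2.95 to -2.66. For footprints per RNA it was 0.46 (0.27 to 0.64), so HNRNPC gained more footprints per RNA than PABPC4 in every pair. In LM2 against parental cells it was 0.43 for RNA (0.32 to 0.59) and 0.48 for footprints (0.19 to 0.65). For footprints per RNA in LM2 against parental cells it was 0.05, with pairs on both sides of 0 (-0.26 to 0.31).

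HNRNPC had more footprints per RNA than PABPC4 in all 4 groups, by a margin that differed between tables. The log2 difference was 1.60 in knockdown and 1.14 in control guide cells, well beyond the SDs of 0.06 to 0.18 between replicates. It was 0.21 in LM2 cells and 0.16 in parental cells, close to the SDs of 0.07 to 0.17, and in parental cells the values of the 2 genes overlapped. PABPC4 stood at percentiles 27.0 to 31.2 of the tested transcripts in knockdown libraries and 17.2 to 26.3 in control guide libraries, and at 34.4 to 40.0 in LM2 libraries and 40.2 to 45.2 in parental libraries. HNRNPC stood at 40.9 to 52.3 in LM2 libraries and 44.9 to 54.6 in parental libraries. Footprints come from the coding part of an mRNA. Whether RNA reads were counted over that part or over the whole transcript is not given in the sources used here. If over the whole transcript, footprints per RNA also depends on the coding share of a transcript, which was not analysed here.

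**Figure D3:**
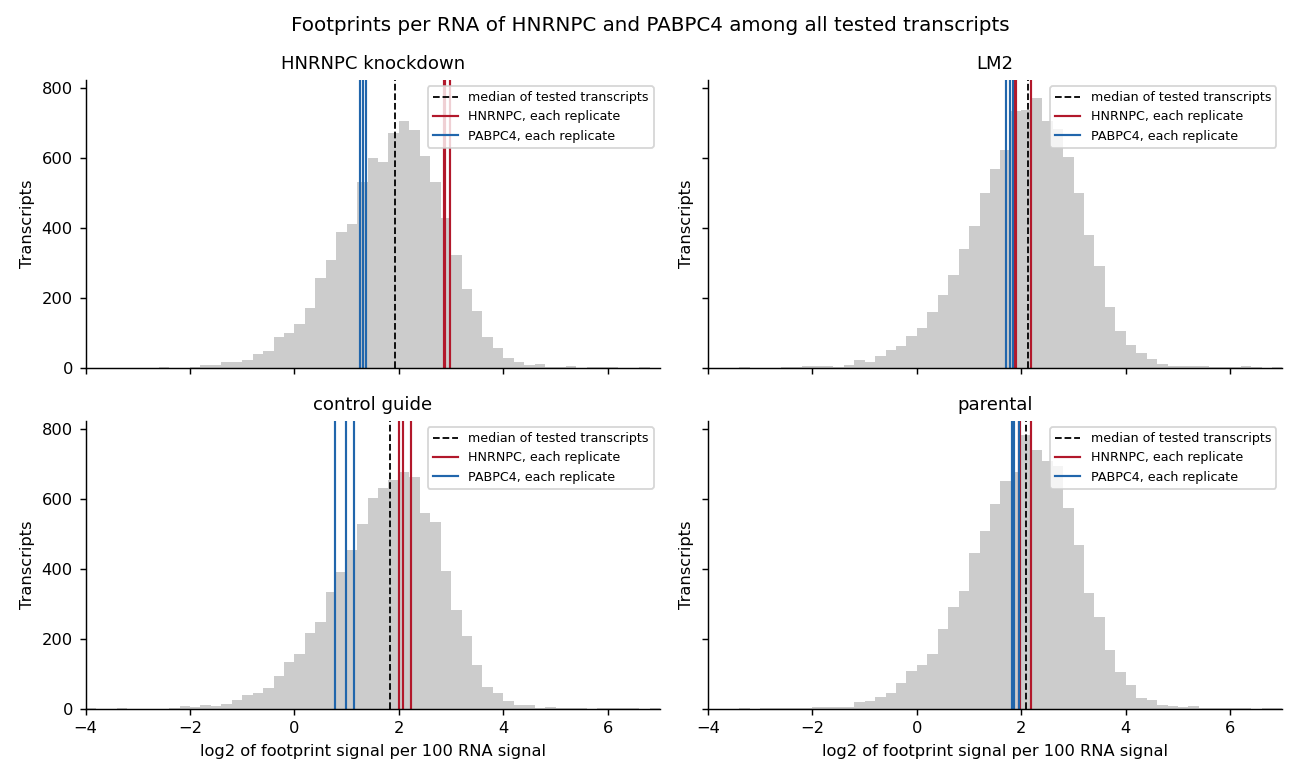
Distribution of footprint signal per 100 RNA signal (log2) over the tested transcripts in each cell group (grey, from the group means), with the median as a dashed line and each replicate of HNRNPC (red) and PABPC4 (blue) as a vertical line. Transcripts beyond the ends of the axis or with no footprints in a group are not drawn. HNRNPC lies to the right of PABPC4 in the knockdown and control guide panels, furthest in knockdown cells, and the lines lie close together in LM2 and parental cells.

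The transcripts whose RNA followed each gene most closely were looked for among 8170 others, by Pearson's r of log2 RNA over the 12 RNA libraries, centred within each table. These libraries form 4 groups, so r mostly reflects the group differences, and it is given as a description. For HNRNPC the closest were ENST00000262105 (r = 0.998), with RNA changes of -1.32 in knockdown and -0.08 in LM2 cells, and ENST00000355653 (r = 0.998), with -1.30 and -0.07. For PABPC4 they were ENST00000615331 (r = 0.991), with 0.41 and -0.63, and ENST00000394815 (r = 0.991), with 0.58 and -1.10. The deposited tables do not pair these IDs with gene names.

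**Figure D4:**
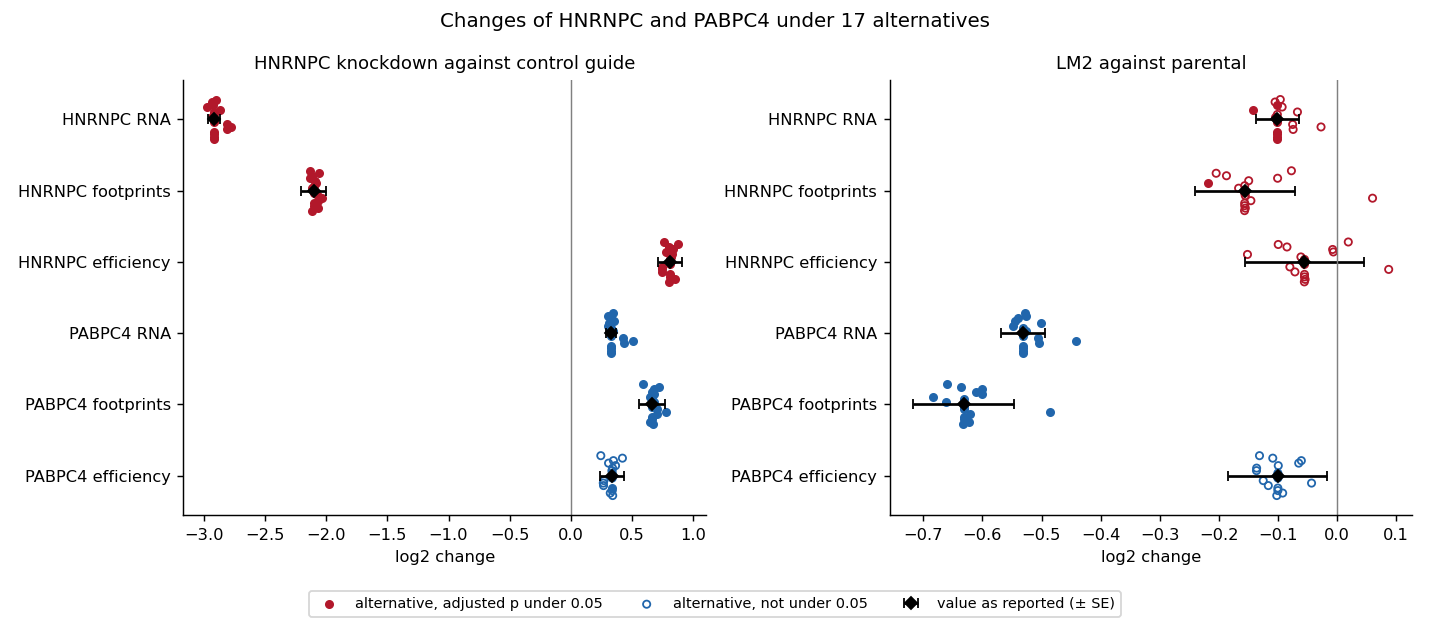
Log2 changes of HNRNPC (red) and PABPC4 (blue) in RNA, footprints and efficiency as reported (black diamonds, with SE) and under 17 alternatives each (circles, filled where the adjusted p was under 0.05), in knockdown against control guide cells (left) and LM2 against parental cells (right). In the knockdown all circles of the RNA and footprint changes and of HNRNPC efficiency are filled, and PABPC4 efficiency has 1 filled circle. In LM2 cells the circles of PABPC4 RNA and footprints are all filled, and HNRNPC efficiency has none filled.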

How the data were processed

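Ribosome footprints and RNA were sequenced by the authors in 4 cell groups, with 3 replicates of each. RNA came from the footprint lysates, per the labels' protocols. The submitters' processing notes name cutadapt 2.3, UMI-tools, Bowtie2 2.3.5, SAMtools and hg38, with no role for each. For the annotation, the assignment of shared reads and the scaling, the method is not given in the sources used here. The authors deposited 1 table per experiment, with normalized signal for each transcript, per the file headers. Every RNA value was a whole number of steps of its library (100% within 0.05), as reads divided by 1 factor would be, and reads were counted from these steps. Footprints showed no such step, and 23 to 234 transcripts per library were at exactly 0. All 24 columns were used. The columns headed MDA were taken as the MDA-Par samples of the same number.

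Values were transformed as log2(value + 1). A transcript was tested where its RNA values averaged 10 or more, and its footprint values too, in a table. The tests were made with limma 3.58.1 under R 4.3.3, with a variance trend. RNA and footprint changes were fitted on 6 libraries, and efficiency as the assay by cell group interaction on 12. P-values are two-sided, with Benjamini-Hochberg adjustment across all tested transcripts of a table and a threshold of 0.05. Since no label states that replicates were separate cultures, p-values reflect only how these samples vary, which may be technical. The fits were tested on simulated data. There, false calls among RNA and footprint calls stayed under the threshold, while those among efficiency calls exceeded it, so efficiency p-values may be too small, their intervals too narrow and the shares called too high.

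The members, lists and tests were chosen with earlier results of these data known. The rule for named transcripts was every listed transcript of HNRNPC and PABPC4 and, for each, the 2 tested transcripts most like it in RNA. Gene names of the members came from the list of IDs. Of the 11396 IDs, 0 matched the gene tables used here, so the lists of poly(A)-binding factors, hnRNP partners and markers of the line were not analysed here. Alternatives were other pseudocounts and minimum means, TMM (own implementation), quantile and median scaling, blocks, other estimates of the spread and leaving out each replicate. Summing the transcripts of a gene did not apply, since each gene had 1.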

Additional observations from a re-analysis of the deposited data

How the results depend on the processing

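In the knockdown, the RNA and footprint changes of both genes and the efficiency change of HNRNPC kept their direction and call under all 17 alternatives of each. So did the RNA and footprint changes of PABPC4 in LM2 cells. The PABPC4 efficiency change in the knockdown, 0.34, passed the test with a minimum mean of 50 (0.34, adjusted p = 0.0372), where fewer transcripts were tested.

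The HNRNPC RNA change in LM2 cells, -0.10, missed the threshold after TMM scaling (-0.074), quantile normalization (-0.027), with the median change set to 0 (-0.075), without a variance trend (-0.10) and with the spread from all 12 libraries (-0.10). Leaving out each replicate gave -0.14 to -0.067. The HNRNPC footprint change in LM2 cells turned to 0.060 after quantile normalization and was -0.22 to -0.077 with a replicate left out. Its efficiency change turned to 0.087 after quantile normalization and was -0.15 to 0.019 with a replicate left out. The cause was not tested.

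Same-numbered libraries of the groups compared did not deviate together (r from -0.20 to 0.03 over tested transcripts), and 0 of 6 libraries correlated best with their own number in each assay and table. Footprint and RNA libraries of the same number within a group, the pairing that bears on efficiency, had r from -0.01 to 0.13. This r was small but above 0 for every number in the knockdown, control guide and LM2 groups. In parental cells it ran from -0.01 to 0.06. The efficiency fit as reported did not use this pairing. The replicate block changed no call of HNRNPC or PABPC4, with efficiency changes of 0.82 and 0.34 in the knockdown at adjusted p of 0.00336 and 0.125. It left 183 efficiency calls of 452 in the knockdown table and 43 of 152 in the LM2 table. With footprints paired to RNA of the same number, the HNRNPC efficiency change passed at an adjusted p of 0.0377, and limma called 75 transcripts in the knockdown table and 0 in the LM2 table (1078 at an unadjusted p under 0.05). Over all alternatives the efficiency calls ran from 75 to 629 in the knockdown table and from 0 to 311 in the LM2 table. Footprint calls ran from 1844 to 4094, against 2998 as reported, in the knockdown table and from 1173 to 3434, against 2223, in the LM2 table. RNA calls ran from 3101 to 7548, against 6084, and from 2701 to 5810, against 5017. The efficiency test takes the spread of RNA and footprints as equal. The number of replicates and the unknown footprint depth limit what could be detected in efficiency.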
